A study of Mus musculus with 6 samples.

Results

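The genes described here are 35 neuropeptide and dense-core vesicle genes of mouse prefrontal cortex, taken from the deposited tables by gene symbol from a fixed list. All 35 were among the 54429 gene rows of each table, and 32 had enough counts to be tested. By role they are 21 peptide precursors, 1 peptide-binding protein, 7 granins and granin-like proteins, 4 processing enzymes and 2 receptors. The cortex came from mice aged 6 to 8 weeks, given as C57BL6/J in the sample labels and as a cross of C57BL/6 with C3H in the design text. In the control group, 3 libraries came from cortex injected with AAV9, an adeno-associated virus, carrying green fluorescent protein (GFP). In the other group, 3 libraries came from cortex injected with AAV9 carrying a short hairpin RNA (shRNA) against Kmt5b, a histone H4 lysine 20 methyltransferase linked to autism. Every animal had thus received virus, and the design text counts 2 control mice where the labels give 3 control libraries. The promoter driving either cargo and the share of cells that took up virus are not given in the sources used here.

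Neuropeptides are made as precursors that enter the secretory pathway and are packed into dense-core vesicles together with granins, acidic proteins that help these vesicles form. Inside the maturing vesicle the prohormone convertases Pcsk1 and Pcsk2 cut the precursor after pairs of basic residues, carboxypeptidase E (Cpe) trims the exposed basic residues, and Pam amidates the end of many peptides. Released peptides act on G protein-coupled receptors, often at a distance from the synapse. In the cortex, Sst, Npy, Vip, Tac2, Cort and much of Crh and Penk mark classes of GABAergic interneurons, while Cck, Adcyap1 and Grp are also made by excitatory neurons.

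The libraries held 29490771 to 74723284 counts, with GFP replicate 2 the shallowest, and libraries of one group were closer to each other (correlation of log2 CPM across genes 0.981 to 0.988) than libraries of different groups (0.945 to 0.956). Kmt5b itself was at 86.5, 79.7 and 80.9 CPM (read counts scaled to a common library size) in the GFP libraries and at 68.5, 80.3 and 63.9 CPM with the shRNA, which is a log2 fold change of -0.22 ± 0.10 (SE) at an edgeR adjusted p of 0.303. The targeted gene was thus not called lower, the library labelled Kmt5b shRNA replicate 2 lay within the GFP range, and every direction below rests on the labels. The vesicular glutamate transporter gene Slc17a7, a marker of cortical excitatory neurons, lay between 859 and 1109 CPM in the 6 libraries, and the GABA synthesis gene Gad1 between 229 and 258 CPM. The hypothalamic peptide genes Hcrt and Pmch had at most 13 and 16 counts in any library. For 33 members, no other protein-coding gene or pseudogene matched over 200 nucleotides or over 50% of the member's length, and 0 had an intronless copy. Shorter matches were found from Npy1r to 499 genes and from Pcsk1n to 1. The Npy1r matches reached the limit of hits kept, so they may be incomplete. Avp and Oxt share a stretch of 271 nucleotides with each other, so their counts are uncertain.

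Among the 32 tested members, 3 were higher and 1 was lower in the Kmt5b shRNA libraries at an edgeR adjusted p under 0.05, beside 2.77% of all 24419 tested genes called higher and 5.69% called lower. At an unadjusted p under 0.05, 6 members were higher and 3 lower, beside 7.2% and 10.2% of all tested genes. Among the 15778 protein-coding genes of the same fit, 9.45% were higher and 6.16% lower at an unadjusted p under 0.05. At an edgeR adjusted p under 0.05, 3.75% of these genes were called higher and 1.58% lower. The higher members were Grp, the precursor of gastrin-releasing peptide, Adcyap1, the precursor of the peptide PACAP, and Pcsk1n, whose product proSAAS inhibits the convertase Pcsk1. The lower member was Npy, the precursor of neuropeptide Y. In 6 of 32 members the CPM of every Kmt5b shRNA library lay above that of every GFP library, which held for 9.84% of all tested genes and 12.3% of the protein-coding ones. In 1 member, Npy, it lay below, which held for 12.7% and 8.58%. The median log2 fold change was 0.14 over the tested members and -0.02 over all tested genes, and 62.5% of the members were above 0 against 47.3% of all genes. Every member is protein-coding, whereas all tested genes include noncoding ones, so these backgrounds are unlike the members. In a fit of the 12431 protein-coding genes that share no sequence, Grp and Adcyap1 were called higher and 0 members lower by edgeR, where 0.877% of genes were called higher and 0.426% lower. The median log2 fold change in that fit was 0.13 over the members and -0.005 over all its genes. At an unadjusted p under 0.05, 6 members were higher in that fit (Grp, Adcyap1, Pcsk1n, Vgf, Vip and Crh) and 3 lower (Npy, Cpe and Penk), beside 8.03% of its genes higher and 6.97% lower.

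**Figure D1:**
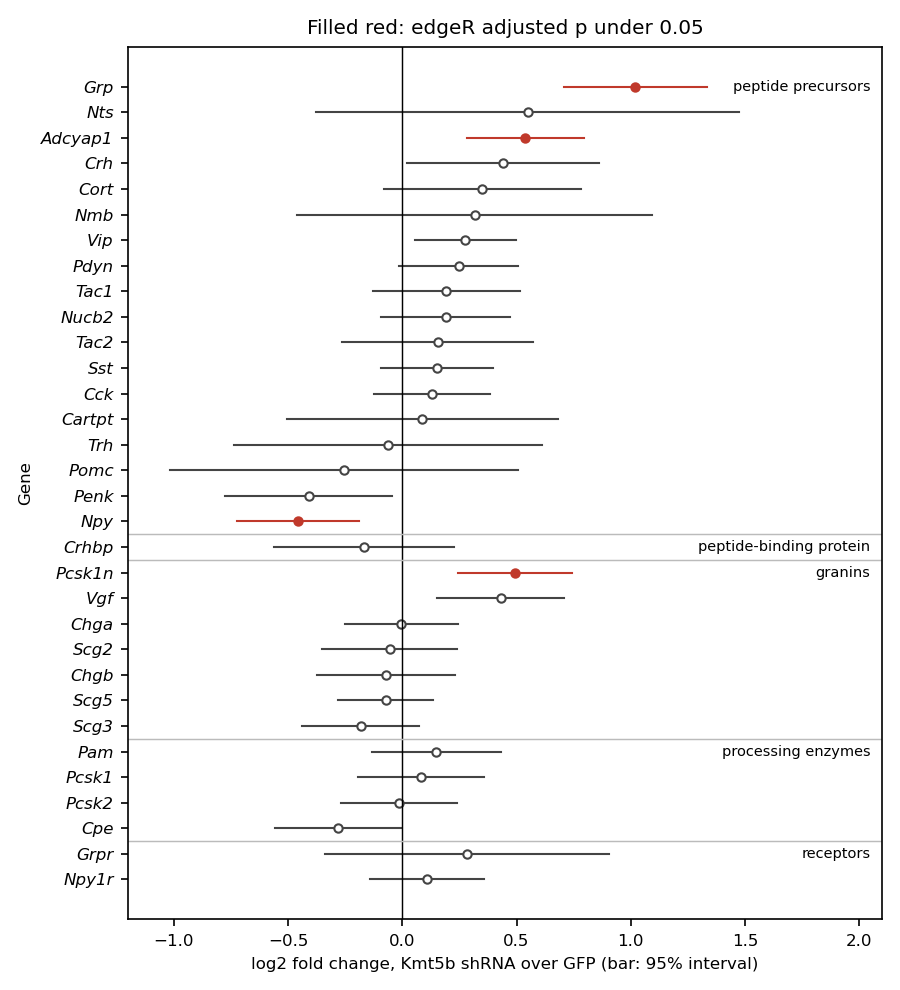
Log2 fold change of Kmt5b shRNA over GFP for the 32 tested members, ordered by role (x axis, log2 scale; each point is the edgeR estimate and each bar its 95% interval). Filled red points mark the 4 members with an adjusted p under 0.05, of which Grp lies farthest from 0 at 1.02.

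Grp showed the largest change of the tested members. It stood at 8.58, 7.19 and 6.68 CPM in the GFP libraries and at 14.1, 17.6 and 13.9 CPM in the Kmt5b shRNA libraries. The groups did not overlap, and the lowest Kmt5b shRNA library was well above the highest GFP library. The means were 7.49 ± 0.982 against 15.2 ± 2.06 CPM (SD, n = 3 each), a 2.03-fold difference and a log2 fold change of 1.02 ± 0.15 (SE, 95% interval 0.71 to 1.33, edgeR adjusted p = 0.000141). The gene behind it lies on chromosome 18 and encodes a bombesin-like peptide that excites interneurons through its receptor Grpr. With each library left out in turn, the Grp log2 fold change stayed between 0.90 and 1.14 and the edgeR adjusted p reached at most 0.00138.

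Adcyap1, on chromosome 17 from 93199017 to 93206537 (mm10, plus strand), encodes PACAP, a peptide that raises cyclic AMP in its target cells. It was at 37.4, 31.8 and 27.7 CPM in the GFP libraries and at 50.1, 48.4 and 42.2 CPM in the Kmt5b shRNA libraries, again without overlap. The log2 fold change was 0.54 ± 0.12 (SE, 95% interval 0.28 to 0.79) with an edgeR adjusted p of 0.00744. The adjusted p was 0.0570 without Kmt5b shRNA replicate 1.

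Npy, on chromosome 6 from 49822710 to 49829507 (plus strand), was at 65.6, 95.7 and 72.2 CPM in the GFP libraries and at 56.2, 58.0 and 55.7 CPM in the Kmt5b shRNA libraries. The Kmt5b shRNA libraries were close together and lay below every GFP library, while GFP replicate 2 stood far above the other two controls. The means were 77.8 ± 15.8 against 56.6 ± 1.21 CPM (SD, n = 3 each), which is -0.46 ± 0.12 as a log2 fold change (SE, 95% interval -0.72 to -0.19, edgeR adjusted p = 0.0317). Without GFP replicate 2 the log2 fold change was -0.28 with an adjusted p of 0.148. The adjusted p was also above 0.05 without Kmt5b shRNA replicates 1, 2 and 3 in turn, at 0.127, 0.0708 and 0.0978. It was 0.0618 with limma voom, 0.0728 over protein-coding genes alone, 0.112 over genes that share no sequence and 0.0553 with intronless copies added to their parent genes, while the Npy log2 fold change stayed at -0.43, -0.47, -0.47 and -0.47.

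Promoters in the RefSeq table were matched for 30 of the 35 members, all but Vgf, Crh, Grp, Cpe and Penk. The windows of the 3 matched members that were called are shown, 250 bases up to the start of transcription on GRCm38.p6. These windows were chosen because the genes were called in opposite directions, Adcyap1 and Pcsk1n higher and Npy lower. They were searched on both strands for the cyclic AMP response element (CRE) TGACGTCA, for its core TGACG, which every CRE also contains, and for the TATA box TATAAA. Capitals mark the core. The window of Npy is chr6:49822460-49822709, that of Adcyap1 chr17:93198767-93199016 and that of Pcsk1n chrX:7919572-7919821, each on the plus strand and printed 5′ to 3′.
Npy: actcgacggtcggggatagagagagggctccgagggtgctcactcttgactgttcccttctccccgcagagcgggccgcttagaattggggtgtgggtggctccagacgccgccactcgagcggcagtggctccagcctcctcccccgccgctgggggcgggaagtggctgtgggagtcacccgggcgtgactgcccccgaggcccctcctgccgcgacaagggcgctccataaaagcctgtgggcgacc
Adcyap1: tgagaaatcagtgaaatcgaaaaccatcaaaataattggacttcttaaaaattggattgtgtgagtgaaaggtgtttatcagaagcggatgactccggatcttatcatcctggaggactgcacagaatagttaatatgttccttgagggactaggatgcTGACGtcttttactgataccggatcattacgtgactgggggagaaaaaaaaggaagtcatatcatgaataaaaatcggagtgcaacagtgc
Pcsk1n: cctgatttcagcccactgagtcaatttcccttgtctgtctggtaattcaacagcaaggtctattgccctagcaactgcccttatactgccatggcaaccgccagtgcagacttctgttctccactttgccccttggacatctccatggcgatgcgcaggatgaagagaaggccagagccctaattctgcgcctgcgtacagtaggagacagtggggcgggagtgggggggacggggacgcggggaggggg
The Adcyap1 window held 1 core, beginning 91 bases before the start, and the windows of Npy and Pcsk1n held none of the searched letters. Their base composition differed, with 69.2% G and C in Npy, 57.6% in Pcsk1n and 39.6% in Adcyap1. The full CRE was found in 5 of the 30 members, Cartpt, Chgb, Pcsk1, Scg2 and Sst, and in 1.60% of 27025 promoters of the same length. In Sst it begins 48 bases before the RefSeq start and is shown with CRE letters in capitals because none of these 5 genes was called changed, from chr16:23890874-23890903 on the minus strand.
Sst: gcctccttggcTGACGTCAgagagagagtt
The core was found in 18 of the 30 members and in 17.8% of all promoters, and the TATA box in 2, Pomc and Vip, and in 12.98% of all promoters. A match gives the letters of the window and does not show that a factor binds there.

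Of the 21 precursors, 18 were tested, 2 were called higher and 1 lower, and 14 had a log2 fold change above 0. Of the tested protein-coding genes, 3.75% were called higher and 1.58% lower by edgeR. Of all tested genes, noncoding ones included, 47.3% were above 0. Vip, the precursor of vasoactive intestinal peptide, was at 45.7, 44.3 and 40.3 CPM in the GFP libraries and at 58.5, 51.0 and 48.1 CPM in the Kmt5b shRNA libraries. The groups did not overlap, but the log2 fold change of 0.27 ± 0.10 (SE) did not pass (edgeR adjusted p = 0.149). Crh, the precursor of corticotropin-releasing hormone, was at 3.96, 3.42 and 3.11 CPM against 5.11, 4.07 and 5.05 CPM, also without overlap. Crh had a log2 fold change of 0.44 ± 0.20 (SE), which did not pass (edgeR adjusted p = 0.255). Crhbp, the secreted protein that binds and sequesters the hormone, was at 23.1, 30.1 and 17.2 CPM in the GFP libraries and at 18.4, 23.9 and 20.0 CPM in the Kmt5b shRNA libraries. These ranges overlapped (log2 fold change -0.17 ± 0.18, SE).

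Penk and Pdyn, which encode opioid peptides, had estimates of opposite sign, and neither passed. Penk, the proenkephalin gene, was at 23.2, 40.9 and 29.1 CPM in the GFP libraries and at 23.8, 23.0 and 23.1 CPM in the Kmt5b shRNA libraries. As for Npy, GFP replicate 2 was the highest library and the Kmt5b shRNA libraries were nearly equal. Penk had a log2 fold change of -0.41 ± 0.17 (SE), which did not pass (edgeR adjusted p = 0.212). Leaving out GFP replicate 2 gave -0.16 (adjusted p = 0.637), and leaving out GFP replicate 1 gave -0.58 (adjusted p = 0.0103). Penk exons overlap those of the noncoding gene A830012C17Rik on the opposite strand, and whether reads were counted by strand is not given in the sources used here. Pdyn, the prodynorphin gene, was at 22.2, 20.3 and 24.7 CPM against 31.0, 23.5 and 25.3 CPM, with overlapping groups (log2 fold change 0.25 ± 0.12, SE, edgeR adjusted p = 0.326).

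Sst, the somatostatin gene and the marker of a large interneuron class that often also makes Npy, was at 130.3, 111 and 96.7 CPM in the GFP libraries and at 116, 135 and 124 CPM in the Kmt5b shRNA libraries. The groups overlapped, with a log2 fold change of 0.15 ± 0.11 (SE) for Sst (edgeR adjusted p = 0.598). The CPM ratio of Npy to Sst was 0.503, 0.859 and 0.746 in the GFP libraries, against 0.485, 0.428 and 0.448 with the shRNA. All 3 Kmt5b shRNA values were below the GFP values, with a two-sided exact permutation p of 0.1, the smallest that 3 against 3 libraries can give (0.133 adjusted over 4 ratios). Cort, the precursor of the somatostatin-like peptide cortistatin, was at 5.33 ± 1.23 CPM in the GFP libraries against 6.79 ± 1.07 CPM with the shRNA (SD, n = 3 each).

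Cck, the cholecystokinin gene, was the most abundant precursor transcript, at 294, 238 and 257 CPM in the GFP libraries and at 332, 256 and 274 CPM in the Kmt5b shRNA libraries. These ranges overlapped, and the 95% interval of the log2 fold change was -0.13 to 0.38. Among the other tested precursors, the tachykinin genes Tac1 and Tac2 had log2 fold changes of 0.19 ± 0.15 and 0.15 ± 0.20 (SE) and the nesfatin precursor Nucb2 0.19 ± 0.13. Transcripts of Cartpt, Trh, Pomc, Nmb and Nts were scarce, with group means from 0.626 to 2.50 CPM. Their 95% intervals were wide, from -0.51 to 0.68 for Cartpt and from -1.02 to 0.50 for Pomc, so smaller differences were not detectable at this depth. Exons of Nmb overlap those of Sec11a on the same strand.

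The 3 members that were not tested are the galanin gene Gal and the genes of the hypothalamic hormones vasopressin (Avp) and oxytocin (Oxt). Gal had 2, 1 and 5 counts in the GFP libraries, against 2, 2 and 0 with the shRNA. Oxt had 8, 0 and 6 against 2, 4 and 2 counts. Avp had 6 counts in GFP replicate 1 and 0 in the other 5 libraries, where a count of 0 allows up to 0.0976 CPM at the lowest depth. These limits cover counting error alone.

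**Figure D2:**
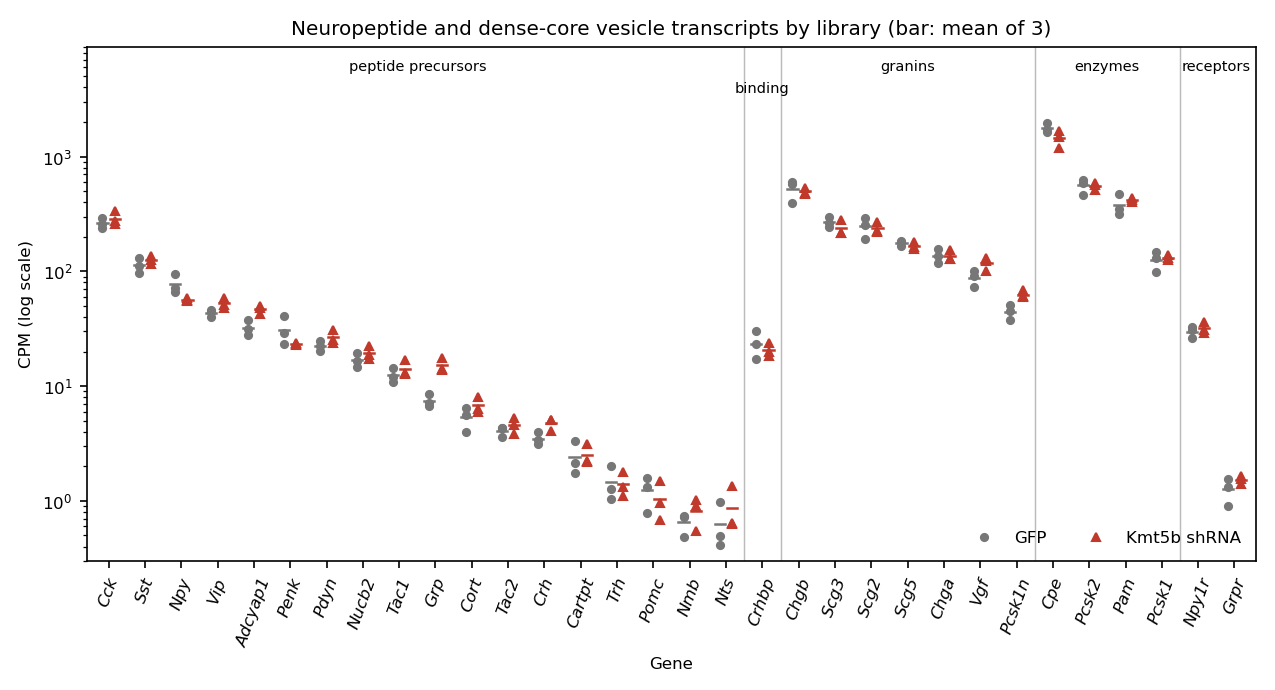
CPM of the 32 tested members in each of the 6 libraries (y axis, log scale), by role and, within a role, in descending order of the GFP mean; circles are GFP, triangles Kmt5b shRNA, and short bars the mean of 3. Values compare libraries within a gene, since CPM is not scaled by length. The Grp triangles stand clear of its circles, and the Npy triangles lie close together under its circles.

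Of the 7 granins and granin-like proteins, 1 was called higher and 0 lower by edgeR, with 2 higher and 0 lower at an unadjusted p under 0.05. The shares of tested protein-coding genes were 3.75% and 1.58% called by edgeR, and 9.45% and 6.16% at an unadjusted p under 0.05. DESeq2 called 2 higher and limma voom 1, and neither called any lower. Pcsk1n, on chromosome X from 7919822 to 7924410 (plus strand), was at 51.1, 45.0 and 37.7 CPM in the GFP libraries and at 68.3, 60.5 and 59.3 CPM in the Kmt5b shRNA libraries. The groups did not overlap (log2 fold change 0.49 ± 0.12, SE, 95% interval 0.24 to 0.74, edgeR adjusted p = 0.0119). Leaving out GFP replicate 3 gave Pcsk1n an adjusted p of 0.0714, leaving out Kmt5b shRNA replicate 1 gave 0.0949, and the fit limited to genes that share no sequence gave 0.0528. Exons of Pcsk1n overlap those of Eras on the opposite strand.

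Vgf, a nerve growth factor-inducible granin that is also cut into active peptides, came next. It was at 90.8, 101.1 and 72.4 CPM in the GFP libraries and at 131, 101.3 and 123 CPM in the Kmt5b shRNA libraries, so that Kmt5b shRNA replicate 2 barely exceeded GFP replicate 2. The log2 fold change was 0.43 ± 0.13 (SE) and did not pass (edgeR adjusted p = 0.0580), although it passed when replicate 2 of either group was left out, with adjusted p of 0.0235 for GFP and 0.0193 for Kmt5b shRNA. Leaving out GFP replicate 3 gave Vgf a log2 fold change of 0.31 (adjusted p = 0.239), and leaving out Kmt5b shRNA replicate 1 gave 0.35 (adjusted p = 0.270). Vgf was also called by DESeq2 (adjusted p = 0.0189) and with RLE size factors (0.0477).

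The classical granins overlapped between the groups. Chgb was at 579, 599.6 and 394 CPM in the GFP libraries and at 476, 536 and 483 CPM in the Kmt5b shRNA libraries. Scg2, the precursor of secretoneurin, was at 255, 292 and 193 CPM against 224, 267 and 221 CPM. In both genes GFP replicate 3 was the lowest of the 6 libraries and GFP replicate 2 the highest. Chga had equal means, 137 ± 19.4 and 137 ± 13.4 CPM (SD, n = 3 each), with a 95% interval of the log2 fold change from -0.25 to 0.24. Scg3, a granin that binds cholesterol-rich vesicle membrane, had -0.18 ± 0.12 (SE) and Scg5, the chaperone 7B2 of Pcsk2, -0.07 ± 0.10.

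None of the 4 processing enzymes passed with edgeR, DESeq2 or limma voom, while 1 of them, Cpe, was lower at an unadjusted p under 0.05 (0.0471). Cpe had the highest level per length of the members. It was at 1952, 1710.2 and 1622 CPM in the GFP libraries and at 1483, 1672 and 1195 CPM in the Kmt5b shRNA libraries, with 1 Kmt5b shRNA library inside the GFP range. Cpe had a log2 fold change of -0.28 ± 0.13 (SE), which did not pass (edgeR adjusted p = 0.277). Cpe is made by astrocytes as well as neurons. Of 12 astrocyte markers, 3 were called lower by edgeR, Aqp4, Gja1 and Gjb6, beside 1.58% of the tested protein-coding genes. The summed level of the 12 markers was 5240 to 5332 CPM in the GFP and 4446 to 5053 CPM in the Kmt5b shRNA libraries. Their part in the Cpe value was not tested. In bulk tissue, fewer cells of a type and less RNA per cell cannot be told apart.

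The convertases differed little between the groups. Pcsk1 was at 130.0, 146 and 97.8 CPM in the GFP libraries and at 126, 139 and 131 CPM in the Kmt5b shRNA libraries, with a 95% interval of the log2 fold change from -0.19 to 0.36. Pcsk2 was at 629, 467 and 589 CPM against 565, 585 and 515 CPM, with an interval from -0.27 to 0.24. Pam, the amidating enzyme, was at 349, 471 and 315 CPM against 437, 406 and 415 CPM (log2 fold change 0.15 ± 0.13, SE). Each of the 3 genes had a wider spread among the GFP than among the Kmt5b shRNA libraries. Exons of Pcsk2 and Pam overlap those of noncoding genes, Pcsk2os1 and Pcsk2os2 on the opposite strand and B230216N24Rik on the same strand.

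Because an inhibitor or a chaperone acts on its own enzyme, their levels were also set against each other within each library. The CPM ratio of Pcsk1n to Pcsk1 was 0.393, 0.307 and 0.385 in the GFP libraries, against 0.544, 0.434 and 0.454 with the shRNA, without overlap (two-sided exact permutation p = 0.1, 0.133 adjusted over 4 ratios). The ratio of Scg5 to Pcsk2 was 0.285, 0.393 and 0.281 against 0.288, 0.310 and 0.305, and the groups overlapped (exact permutation p = 1). The ratio of Grp to its receptor gene Grpr was 5.52, 5.39 and 7.47 against 9.13, 10.8 and 9.92, without overlap (exact permutation p = 0.1, 0.133 adjusted).

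Both receptors were tested and neither passed the edgeR test, at unadjusted p of 0.347 for Grpr and 0.370 for Npy1r. Grpr, the receptor for gastrin-releasing peptide, was scarce, at 1.55, 1.33 and 0.895 CPM in the GFP libraries and 1.55, 1.64 and 1.40 CPM in the Kmt5b shRNA libraries. Its log2 fold change was 0.28 ± 0.29 (SE), with a 95% interval from -0.34 to 0.91. Npy1r, a receptor for neuropeptide Y, was at 31.0, 32.4 and 26.0 CPM against 36.1, 31.0 and 29.1 CPM, with an interval from -0.14 to 0.36. Grp and Npy were thus called, Npy under only 8 of 16 alternatives and Grp under all 16, while no difference was detected in these receptors. It was not established that ligand and receptor changed differently. The exact test of the Grp to Grpr ratio cannot go below 0.1 with these libraries.

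Of the 28 members that were tested and not called, 18 had a 95% interval lying wholly within a 1.5-fold change in either direction. These include Sst, Cck, Scg2, Scg3, Scg5, Chga, Chgb, Pcsk1, Pcsk2 and Npy1r, so that for them a larger mean change between these libraries lay outside the interval.

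Levels between genes can be compared per length of exon, here as CPM per kilobase of all annotated exons. In the GFP libraries Cpe stood first at 675 ± 65.5, followed by Cck (201.5 ± 21.96), Chgb (191 ± 41.3), Sst (156 ± 23.3) and Npy (137.5 ± 27.95) (SD, n = 3). Cck and Chgb lay within each other's SD, as did Sst and Npy. The mean of Chgb lay above the SD range of Sst, while the mean of Sst lay inside that of Chgb. Scg5 (112 ± 6.01), Scg2 (98.1 ± 19.9) and Scg3 (98.0 ± 9.81) came next on this scale. In the Kmt5b shRNA libraries Npy was at 100.04 ± 2.13 per kilobase and Scg5 at 107 ± 8.13. The Npy mean lay inside the SD range of Scg5, while the Scg5 mean lay above that of Npy. Grp rose on this scale from 5.07 ± 0.665 to 10.3 ± 1.39, beside 7.76 ± 0.770 and 9.22 ± 1.35 for Pdyn. Grp lay below Pdyn in the GFP libraries, while with the shRNA these genes lay within each other's SD.

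The members did not vary alike among the control libraries. GFP replicate 3 was the lowest of the 6 libraries in 17 of the 32 tested members and the highest in 0, and Kmt5b shRNA replicate 1 was the highest in 10 and the lowest in 0. GFP replicate 2 was the highest in 9 and the lowest in 8. Among the members not overlapping between groups, Grp, Adcyap1, Pcsk1n, Vgf, Vip and Crh were each lowest in GFP replicate 3. In these genes every Kmt5b shRNA library lay above every GFP library, so the lowest could only be a GFP library. The median coefficient of variation was 15.3% in the GFP and 12.7% in the Kmt5b shRNA libraries. Npy varied by 20.3% against 2.13% and Penk by 29.0% against 1.73%.

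**Figure D3:**
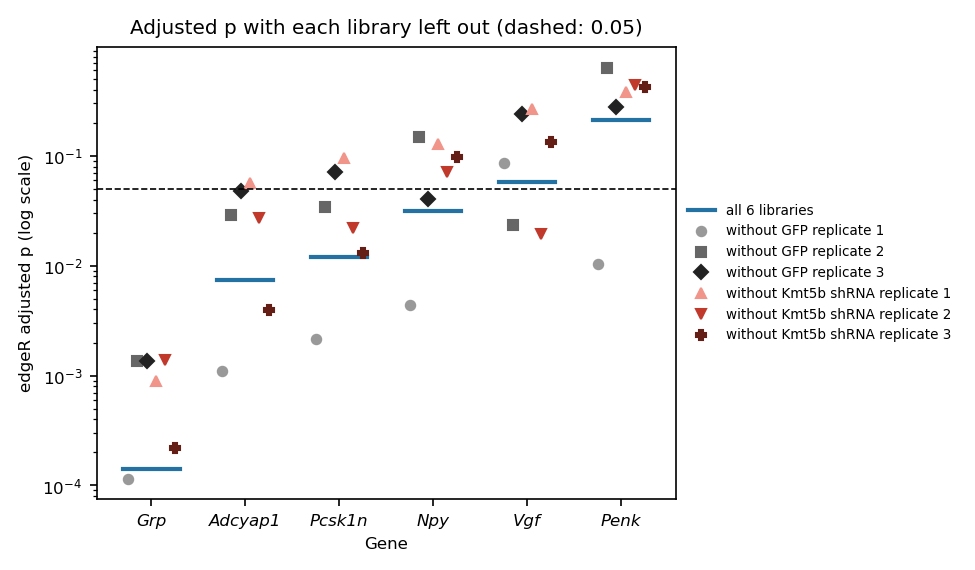
EdgeR adjusted p (y axis, log scale) of 6 members with all 6 libraries (blue bar) and with each library left out in turn (symbols), with the threshold of 0.05 as a dashed line. Grp stays under the threshold throughout, at most 0.00138, while Npy crosses it in 4 of 6 fits and Pcsk1n in 2.

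The wider peptide pathway was read from lists drawn up by function. Beside the counts below, 3.75% of the tested protein-coding genes were called higher and 1.58% lower by edgeR. At an unadjusted edgeR p under 0.05 these shares were 9.45% and 6.16%. Among 28 other peptide precursor genes, 12 were tested and 0 were called by edgeR, DESeq2 or limma voom, with 0 higher and 1 lower at an unadjusted edgeR p under 0.05. The gene of smallest p was Apln, the apelin precursor, with a log2 fold change of -0.81 ± 0.30 (SE, unadjusted p = 0.0358, edgeR adjusted p = 0.232). Among 38 other peptide receptor genes, 34 were tested, 1 was called higher and 0 lower by edgeR, and 16 were above 0 with a median log2 fold change of -0.02. At an unadjusted edgeR p under 0.05, 3 were higher and 4 lower, DESeq2 called 1 higher and 1 lower, and limma voom called 1 higher and 0 lower. The called gene was the galanin receptor Galr1, which rose from a very low level, with 2, 2 and 4 counts in the GFP libraries against 13, 15 and 24 with the shRNA. Over the summed counts of 8 and 52, scaled to library size, the Galr1 ratio was 7.22, with a 95% interval of 3.41 to 17.6 from counting error alone, and its edgeR adjusted p was 0.0115.

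The receptors of PACAP and neuropeptide Y on this list were among the genes not called. Among 30 genes of dense-core vesicle transport and release, all 30 were tested, 0 were called by edgeR and 16 were above 0, with a median log2 fold change of 0.01. At an unadjusted edgeR p under 0.05, 1 was higher and 1 lower, and DESeq2 and limma voom each called 1 higher. The smallest p was that of Baiap3, a Munc13-family protein of dense-core vesicle traffic, at 6.89 ± 1.23 CPM in the GFP libraries against 9.74 ± 0.980 CPM with the shRNA (SD, n = 3 each), with an unadjusted p of 0.00738 and an edgeR adjusted p of 0.0775. Among 24 other genes of peptide processing and degradation, 1 was called higher and 0 lower by edgeR, with 3 higher and 1 lower at an unadjusted p under 0.05. The shares of tested protein-coding genes called by edgeR were again 3.75% higher and 1.58% lower. DESeq2 called 2 higher and limma voom 1, and neither called any lower. The called gene was the convertase Pcsk5, at 26.5 ± 1.01 CPM in the GFP libraries against 34.4 ± 3.37 CPM with the shRNA (SD, n = 3 each; log2 fold change 0.38 ± 0.10, SE, edgeR adjusted p = 0.0314).

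**Figure D4:**
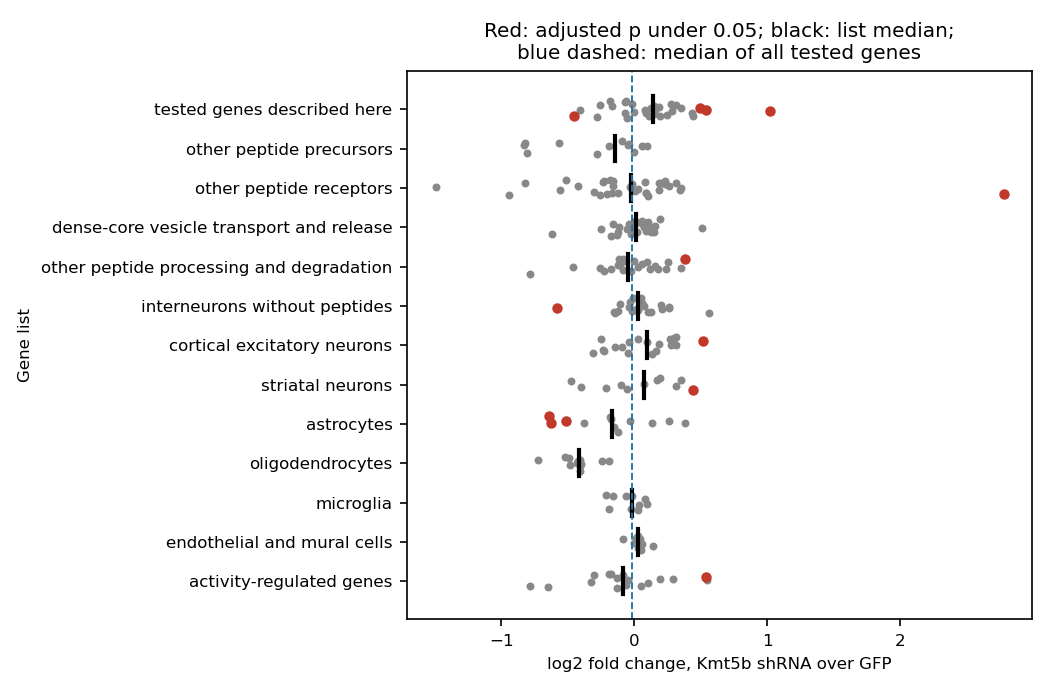
Log2 fold change of Kmt5b shRNA over GFP (x axis) for tested genes of each list (rows), with called genes in red, list medians as black bars and the median of all tested genes as a blue dashed line. The members have a median of 0.14, the dense-core vesicle transport list 0.01 and the oligodendrocyte list -0.42.

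Markers of the cells that make these peptides were set beside the results. Of the tested protein-coding genes, 3.75% were called higher and 1.58% lower by edgeR. Of 22 interneuron markers that are not peptides, 0 were called higher by edgeR, DESeq2 or limma voom (1 at an unadjusted edgeR p under 0.05) and 1 lower, with a median log2 fold change of 0.02, and their summed level was 1216 to 1298 CPM in the GFP and 1189 to 1225 CPM in the Kmt5b shRNA libraries. The lower one was Pvalb, the calcium-binding protein of fast-spiking interneurons, at 34.9, 39.3 and 29.1 CPM against 22.1, 23.3 and 23.7 CPM (log2 fold change -0.58 ± 0.12, SE, edgeR adjusted p = 0.00329). Pvalb, like Npy, was highest in GFP replicate 2. Of 19 markers of cortical excitatory neurons, 1 was called higher, Etv1 of deep-layer neurons (0.52 ± 0.12, SE, edgeR adjusted p = 0.0117), with a list median of 0.09. At an unadjusted edgeR p under 0.05, 6 of the 19 were higher and 0 lower, beside 9.45% and 6.16% of the tested protein-coding genes, and DESeq2 and limma voom each called 1 higher. In 5 of the 19 all Kmt5b shRNA libraries lay above all GFP libraries, and in 0 below. Of the tested protein-coding genes, 12.3% lay above and 8.58% below in this way, and of the 22 interneuron markers 4 and 2. The summed level of the excitatory list was 2377 to 2702 CPM in the GFP and 2458 to 2691 CPM in the Kmt5b shRNA libraries. Of 13 striatal markers, 11 were tested and 1 was called higher, Pde10a (0.44 ± 0.10, SE, edgeR adjusted p = 0.0104), with 1 higher and 1 lower at an unadjusted p under 0.05, and their summed level was 300 to 361 CPM in the GFP and 364 to 373 CPM in the Kmt5b shRNA libraries. In this striatal sum every Kmt5b shRNA library lay above every GFP library. The striatal receptor gene Drd2, which is on the same list, was at most 1.34 CPM in any library. The part of these markers in the values of Grp, Adcyap1, Npy and Penk was not tested.

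The median log2 fold change of oligodendrocyte markers was -0.42, 0 of 12 were above 0 and 0 called by edgeR, while 2 were lower at an unadjusted p under 0.05 and DESeq2 and limma voom each called 1 lower. Their summed level was 2885 to 4403 CPM in the GFP and 1593 to 3353 CPM in the Kmt5b shRNA libraries. Microglial and endothelial or mural markers had medians of -0.02 and 0.03, with 0 of 10 in each list called by any of these tools or at an unadjusted edgeR p under 0.05. Several members, among them Vgf, Scg2, Pdyn and Penk, are known to follow neuronal activity. Of 17 activity-regulated genes 1 was called higher, Inhba (0.54 ± 0.14, SE, edgeR adjusted p = 0.0226), beside 3.75% of the tested protein-coding genes. The list median was -0.08. At an unadjusted edgeR p under 0.05, 2 of the 17 were higher and 1 lower. DESeq2 called 2 higher and 1 lower, and limma voom called 1 higher and 1 lower. Their summed level was 1100.2, 835 and 581 CPM in the GFP libraries and 784, 622 and 737 CPM in the Kmt5b shRNA libraries, so the controls alone spanned both extremes. GFP replicate 3, the lowest in this sum, was also the lowest of the 6 libraries in Vgf and Scg2, but not in Pdyn, where GFP replicate 2 was lowest, or in Penk, where Kmt5b shRNA replicate 2 was. The part of activity in these values was not tested.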

How the data were processed

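Bulk RNA of mouse prefrontal cortex was measured in 6 libraries, grouped by the sample titles. The labels' protocols describe strand-specific libraries after removal of ribosomal RNA, trimming with Cutadapt and alignment with TopHat2, whereas the submitters' processing notes name STAR, featureCounts, DESeq2 and mm10. The authors deposited raw read counts for 54429 gene symbols, of which 53749 are in GENCODE M21.

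edgeR 4.0.16 (R 4.3.3) tested the counts with filterByExpr, TMM scaling and a robust quasi-likelihood fit. A call is a Benjamini-Hochberg adjusted p under 0.05 over all 24419 tested genes. The SE is the log2 fold change over the square root of its F statistic, without sign. CPM uses TMM library sizes. Shared sequence was found with BLAST+ 2.17.0 on the longest transcripts (90% identity, at least 100 nucleotides). Alternatives used DESeq2 1.42.0, limma 3.58.1 (voom), other scalings, filters and gene sets, a replicate block and each library left out. On simulated counts with 23952 genes tested, 81% of changes of 1 and 26% of changes of 0.5 on the log2 scale were called by edgeR, with 13.01% of calls false. The changes were placed only in genes with a log2 CPM above 1.

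The members and gene lists were chosen with earlier results of these data known. The text names every member, the targeted gene, and from each further list the called genes (at most 4 per direction) or otherwise the gene of smallest p. Slc17a7, Gad1, Hcrt, Pmch and Drd2 were added to check the tissue. Replicates of a group differed by more than sampling noise (chi-square per gene of 16.5 to 40.3). Nothing says that libraries came from separate animals, so p-values measure the spread between these libraries.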

Additional observations from a re-analysis of the deposited data

How the results depend on the processing

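Of 510 member values under 16 alternatives, 491 kept their side of the threshold, 12 lost and 7 gained a call, and 0 called values changed sign, while 8 members that were not called changed sign. Grp passed under all 16, Adcyap1 under 15, Pcsk1n under 13, Npy under 8 and Vgf under 5. Over all genes, 676 were called higher and 1390 lower, against 471 and 184 for protein-coding genes alone, 109 and 53 for genes sharing no sequence and 359 and 477 with copies added to their parents, and the cause was not tested. The 1 lower member became 0 under limma voom, under each of these 3 gene sets, and 2 with no filter on low counts, when Penk was added. With a library left out, 467 to 822 genes were higher and 1229 to 1510 lower, and the members called ranged from 1 to 4 higher and from 0 to 2 lower. Without Kmt5b shRNA replicate 1, Grp was the 1 higher member. With the replicate number as a block, 704 genes and 3 members were higher and 1507 genes and 1 member lower. Same-numbered libraries did not deviate together for replicates 1 and 2 (correlations -0.03 and -0.01), while the replicate 3 libraries had 0.22. GFP replicate 1 and Kmt5b shRNA replicate 2 had 0.21, so not every library correlated best with its own number. The labels give no pairing. On simulated counts of this depth, 26% of changes of 0.5 on the log2 scale were called, all placed in genes with a log2 CPM above 1. Changes of that size could thus be missed in members above that level. Scarcer members were not covered by the simulation.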
